A study of Bos taurus with 8 samples.

Results

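The genes described here encode the collagens other than type IV, the matrix proteins of fibrils, beaded filaments and related assemblies. They were chosen by name alone: every array probe whose symbol has the form COL, a number, A and a number, without the type IV genes. This gave 33 genes on 40 probes, of 15227 named genes on the array. The 6 type IV genes of basement membranes were left out by the rule.

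Bovine blastocysts were made in vitro from ovaries collected at slaughter, with dairy cattle of any breed as the stated source. Glucose embryos were cultured in 5 mM glucose from day 0 to day 3, the cleavage stage, and control embryos in 0.2 mM glucose over the same days. Both groups were then moved to the ordinary culture medium and collected as blastocysts at 180 h, counted from fertilization. There were 4 glucose pools and 4 control pools, of 10 embryos each. A pool mixes embryos of unstated parents, and whether pools came from separate ovary collections is not given, so p-values measure only the spread between these pools.

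RNA of each pool was amplified and labelled with Cy3 or Cy5, and 8 Agilent arrays each held a glucose pool against a control pool. Titles give each array a number and an array set, 047 or 056, and every number occurred once in each set, with the dyes exchanged. Arrays of one number were treated as a dye swap of the same pools, which gave 4 replicate ratios. The share of probes brighter than the array's negative controls in either channel was 66.2% to 82.2%. The trophectoderm genes KRT8, KRT18 and IFNT and the inner cell mass genes POU5F1 and NANOG exceeded these controls in all 8 glucose and all 8 control channels, CDX2 in 6 and 6, and SOX2 in 7 and 7. Throughout, a ratio is log2(glucose/control), a level is the normalized spot intensity with an added constant of 50, and the fold is the ratio on the linear scale. Levels are read only within a probe, apart from 2 sums over marker lists. The pools are bulk RNA, so fewer cells of a type and less RNA per cell cannot be told apart.

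A collagen is built of chains that wind into a helix. The chains are hydroxylated in the endoplasmic reticulum by prolyl and lysyl hydroxylases, trimmed outside the cell by procollagen proteinases, and cross-linked by lysyl oxidases. Fibrillar collagens give tissues their tensile strength, FACIT collagens sit on fibril surfaces, type VI forms beaded filaments near cells, and several collagens span the plasma membrane. In the adult these genes are known mainly from fibroblasts, cartilage and bone. In early embryos type IV is the collagen best known for basement membranes, so most collagens outside it are better known from later mesenchymal tissues.

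Of the 33 genes, 28 were bright enough to be tested. The 5 left out were COL6A1, COL6A6, COL8A2, COL11A1 and COL20A1, whose replicate ratios lay between -0.28 and 0.18. Against negative controls with the brightest control spot of each channel left out, 12 genes exceeded background in every glucose and every control channel: COL1A1, COL1A2, COL8A1, COL9A2, COL12A1, COL13A1, COL15A1, COL19A1, COL21A1, COL23A1, COL27A1 and COL28A1. A further 20 did so in some channels, and COL11A1, a fibrillar chain of cartilage, was not well above background in any.

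No collagen passed the adjusted test. In limma's test with Benjamini-Hochberg adjustment over 32935 probes, 0 of the 28 genes were called, their lowest adjusted p was 0.977, and 0 of the 12587 named genes tested were called (0%). At an unadjusted p under 0.05, limma gave 1 of the 28 collagens (3.57%), COL12A1, against 2.7% of all named genes and 2.37% of all probes. The mean ratio was above 0 in 14 collagens and below 0 in 14, against 52.3% above 0 among all named genes. The median over the 28 was -0.00, against 0.01 over all named genes. In these counts of p-values and mean ratios, and in the median of the mean ratios, the collagens as a group lay near the background. Counts within single pairs, given below, were in part further from it.

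The ratios of the 28 genes varied between pairs of pools. In replicate 3, 12 of the 28 collagens had their highest ratio and 1 had its lowest. In replicate 4, 5 had their highest and 15 their lowest. The same counts were not made over all named genes, so they are not read as particular to collagens. The median over the collagens was 0.04 in replicate 1, -0.03 in replicate 2, 0.02 in replicate 3 and -0.13 in replicate 4, with medians of all named genes at 0.00 in size in each. Replicate 4 also had the widest ratios over all probes, with an SD of 0.43, against 0.19 in replicate 1, 0.21 in replicate 2 and 0.24 in replicate 3. The part of that wider spread in the low collagen values of replicate 4 was not tested.

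**Figure D1:**
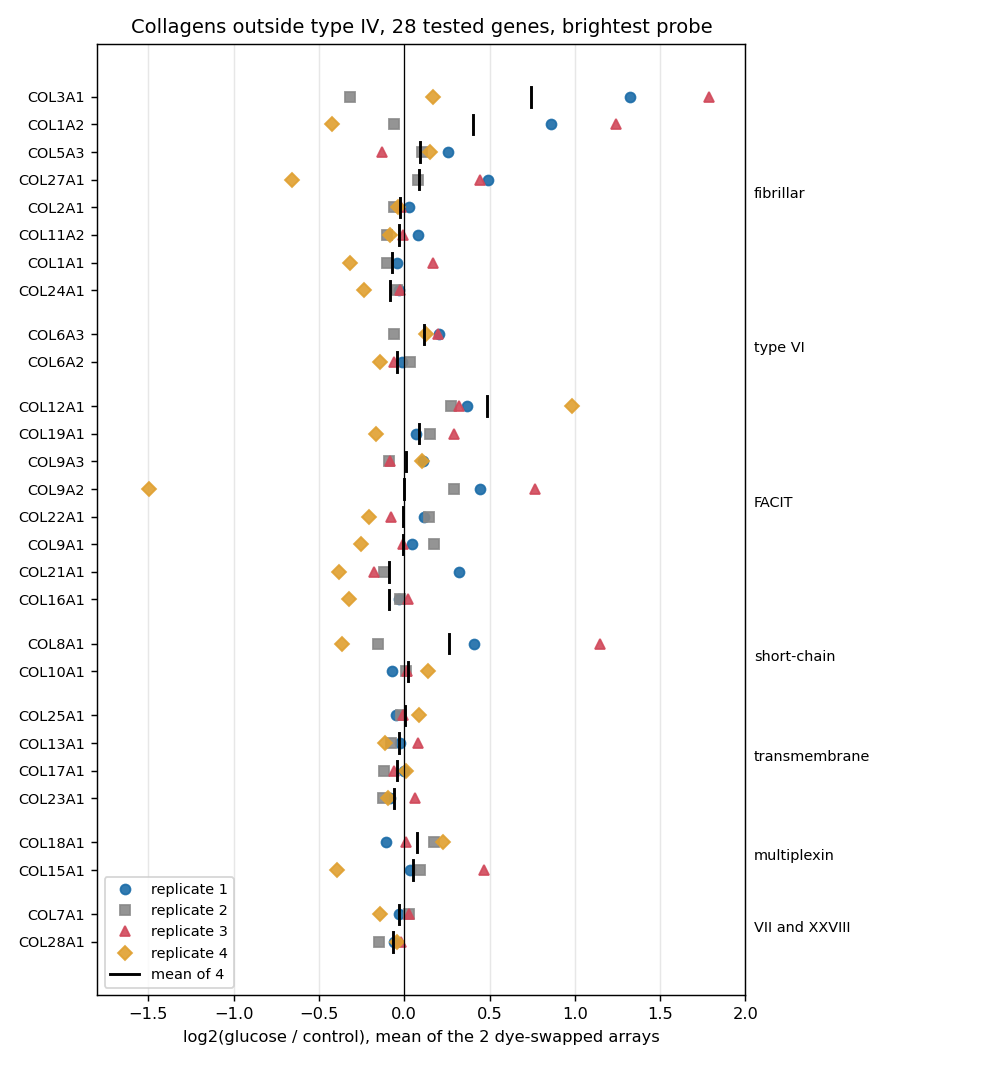
Log2(glucose/control) of the 28 tested collagens, by family, with a symbol for each of the 4 replicates and a bar at their mean. COL3A1 reaches 1.33 in replicate 1 and 1.79 in replicate 3, COL9A2 lies at -1.50 in replicate 4, and COL12A1 stays right of 0 in all 4.

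Among the fibrillar collagens, the chains of the fibrils of skin, bone and vessel walls, 8 of the 9 genes on the array were tested and 0 had an unadjusted p under 0.05 in limma. COL3A1 (probe EMBV3_17889), the sole chain of type III collagen in stretchable tissues, had levels of 446, 123, 1016 and 173 in glucose pools 1 to 4, against 178, 153, 294 and 154 in control pools 1 to 4. Glucose pools 1 and 3 were well above their controls, pool 4 was slightly above and pool 2 was below, and the groups overlapped. The ratios were 1.33, -0.32, 1.79 and 0.17.

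The mean ratio of COL3A1 was 0.74 ± 0.98 (SD, n = 4), a 1.67-fold difference with a 95% interval of -0.25 to 1.73 on the log2 scale, and limma's adjusted p was 0.977 (unadjusted 0.113). The difference is smaller than the spread between replicates. COL3A1 exceeded background in 7 of 8 glucose and 8 of 8 control channels. Without replicates 1 and 3 together, the pairs with its highest ratios, its mean was -0.07. Leaving out the highest ratios must lower a mean, so this only describes how far the mean rests on those pairs. The mean was 0.84 on array set 047 alone and 0.64 on array set 056 alone.

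COL1A2 (EMBV3_05677), the alpha-2 chain of type I collagen, had levels of 3803, 1512, 5005 and 1297 in glucose pools 1 to 4, against 2097, 1576, 2117 and 1738 in control pools 1 to 4. As for COL3A1, glucose was higher in pairs 1 and 3, while pair 2 was near equal and pair 4 lower. Its ratios were 0.86, -0.06, 1.24 and -0.42, with a mean of 0.40 ± 0.78 (SD, n = 4), a 1.32-fold difference. The interval was -0.38 to 1.19, and limma's adjusted p was 0.977 (unadjusted 0.243). Without replicates 1 and 3 together, again the pairs with the highest ratios, the mean was -0.24. Leaving out single replicates it lay between 0.13 and 0.68. It was 0.41 on array set 047 alone and 0.40 on array set 056 alone.

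COL1A1 (EMBV3_01655) encodes the other chain of type I collagen, with which COL1A2 is assembled. Its levels were 216, 183, 202 and 186 in glucose pools 1 to 4, against 223, 196, 180 and 232 in control pools 1 to 4. The groups overlapped, and glucose was below control in 3 of the 4 pairs. Its ratios were -0.04, -0.10, 0.17 and -0.32, with a mean of -0.07 ± 0.20 (SD, n = 4) and an interval of -0.31 to 0.16.

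The type I chains, each read by 1 probe, therefore did not show the same ratios in the pairs where COL1A2 was high. The COL1A2 ratio minus the COL1A1 ratio was 0.90 in replicate 1 and 1.07 in replicate 3, against 0.04 in replicate 2 and -0.10 in replicate 4. The COL1A1 probe exceeded background in all 8 glucose and all 8 control channels, but its levels of 180 to 232 include the added constant of 50. That constant pulls ratios at low levels toward 0, which limits the comparison of the chains. No test was made of this difference.

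The remaining fibrillar genes gave small ratios, apart from COL27A1, a fibrillar chain of cartilage. COL27A1 had ratios of 0.49, 0.08, 0.44 and -0.66, with a mean of 0.09 ± 0.53 (SD, n = 4). COL2A1 and COL11A2, chains of cartilage fibrils, COL5A3, a chain of type V collagen, and COL24A1, a fibrillar chain known from bone, had ratios between -0.23 and 0.26. Of these, COL24A1 was below 0 in all 4 replicates by its brightest probe, with -0.03, -0.04, -0.03 and -0.23. Its other probes did not keep that sign. EMBV3_21832 had 0.03, -0.06, -0.01 and 0.01, and EMBV3_29446 had 0.08, 0.00, 0.18 and -0.05.

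Of the type VI chains, which form beaded filaments, 2 of the 4 on the array were tested. COL6A2 (EMBV3_09578) had levels of 145, 130, 133 and 120 in glucose pools 1 to 4, against 146, 127, 139 and 132 in control pools 1 to 4. Its ratios were -0.01, 0.03, -0.06 and -0.14, with a mean of -0.04 ± 0.08 (SD, n = 4) and an interval of -0.18 to 0.10. The pools overlapped throughout, and the probe exceeded background in 5 glucose and 6 control channels of 8 each.

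COL6A3 (EMBV3_11629), the longest type VI chain, had levels of 146, 108, 122 and 98.0 in glucose pools 1 to 4, against 127, 113, 106 and 89.9 in control pools 1 to 4. Its ratios were 0.20, -0.06, 0.20 and 0.13, with a mean of 0.12 ± 0.12 (SD, n = 4), an interval of -0.06 to 0.29 and an adjusted limma p of 0.977. Glucose was higher in 3 of the 4 pairs by small amounts, and the probe exceeded background in 4 glucose and 3 control channels of 8. It was also brighter in Cy5 than in Cy3: the dye term of the 8-array fit was 0.62 (limma, adjusted p = 0.010). With glucose in Cy5 its array ratios were 0.43, 0.24, 0.55 and 0.49, and with glucose in Cy3 they were -0.03, -0.36, -0.15 and -0.24. Averaging the swapped arrays removes that term from the ratio.

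**Figure D2:**
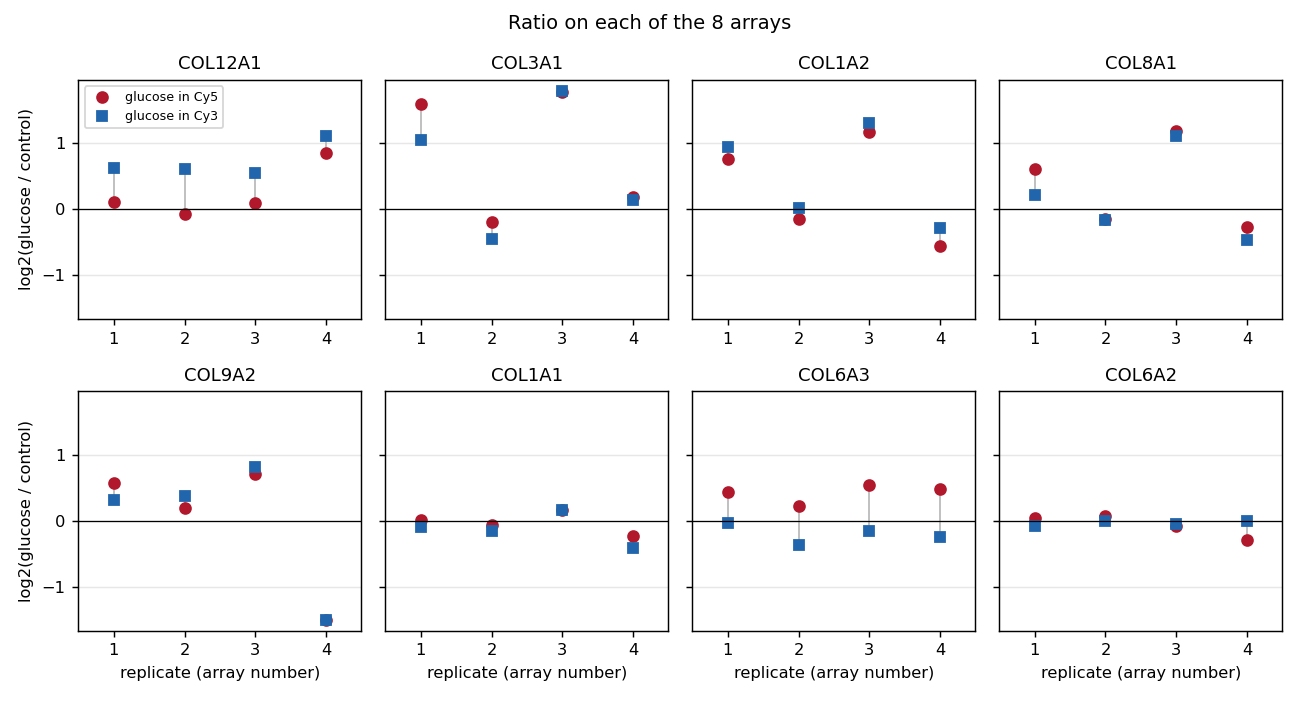
Log2(glucose/control) on each of the 8 arrays for the 8 collagens described in full, by replicate, with circles for glucose in Cy5 and squares for glucose in Cy3. In COL3A1, COL1A2, COL8A1 and COL9A2 the dye orientations lie close together next to the distance between replicates, while in COL6A3 and COL12A1 they are set apart, with COL6A3 higher when glucose was in Cy5 and COL12A1 higher when it was in Cy3.

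The FACIT collagens, which attach to fibrils without forming their own, had 8 of 9 genes tested. COL12A1 (EMBV3_19796), a FACIT on type I fibrils in tendon and other dense tissue, had levels of 2126, 1181, 3043 and 1267 in glucose pools 1 to 4, against 1650, 978, 2437 and 640 in control pools 1 to 4. Glucose was higher in all 4 pairs although the ranges overlapped. The ratios were 0.37, 0.27, 0.32 and 0.99.

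The mean ratio of COL12A1 was 0.49 ± 0.34 (SD, n = 4), a 1.40-fold difference with an interval of 0.13 to 0.84 and an unadjusted limma p of 0.017. Its adjusted p was 0.977, so it did not pass the test across probes. With glucose in Cy3 its ratios were 0.62, 0.61, 0.55 and 1.12, and with glucose in Cy5 they were 0.11, -0.07, 0.10 and 0.85, so replicates 1 to 3 lay near 0 in one dye orientation and above it in the other. The dye term was -0.48 (limma, adjusted p = 0.195). The mean was 0.43 on array set 047 alone and 0.54 on array set 056 alone, and without replicate 4 it was 0.32.

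COL9A2 (EMBV3_23715), a chain of the cartilage FACIT type IX, had levels of 513, 505, 1217 and 278 in glucose pools 1 to 4, against 377, 413, 716 and 783 in control pools 1 to 4. Glucose was higher in pairs 1, 2 and 3 and lower in pair 4. Its ratios were 0.44, 0.29, 0.77 and -1.50, and in replicate 4 it was -1.50 in both dye orientations. The mean was 0.00 ± 1.02 (SD, n = 4), with an interval of -1.03 to 1.03 and an adjusted limma p of 1.00.

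The spread of COL9A2 was the largest among the 28 tested collagens, followed by that of COL3A1 at 0.98. Without replicate 4 its mean was 0.50, and without replicate 3 it was -0.25, so its direction depends on single pairs. COL9A1, another chain of type IX, had ratios of 0.05, 0.17, -0.00 and -0.26, also lowest in replicate 4 but by less. COL9A3, the remaining chain, had 0.11, -0.09, -0.08 and 0.11, but its probe exceeded background in only 3 of 8 glucose and 3 of 8 control channels and had a called dye term of 0.52, which limits what its ratios can show.

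The other FACIT genes were COL16A1, COL19A1, COL21A1 and COL22A1, with ratios between -0.38 and 0.32. COL21A1 had 0.32, -0.12, -0.18 and -0.38. COL19A1 lies next to COL9A1 in the ARS-UCD2.0 gene order and had ratios of 0.07, 0.15, 0.29 and -0.16. Its dye term was large: with glucose in Cy5 its ratios were -0.77, -0.87, -0.43 and -0.78, and with glucose in Cy3 they were 0.91, 1.17, 1.01 and 0.45 (limma, dye term -1.60, adjusted p = 0.002). In all, 5 of the 28 collagens had a called dye term (17.9%), against 9.82% of named genes. COL28A1, COL6A3 and COL9A3 were brighter in Cy5, and COL19A1 and COL23A1 in Cy3.

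The short-chain collagens, which form networks in vessel walls and growth plates, had 2 of 3 genes tested. COL8A1 (EMBV3_35082), a chain of type VIII collagen, had levels of 249, 123, 302 and 121 in glucose pools 1 to 4, against 187, 137, 136 and 155 in control pools 1 to 4. Glucose was higher in pairs 1 and 3 and lower in pairs 2 and 4. Its ratios were 0.41, -0.16, 1.15 and -0.36, with a mean of 0.26 ± 0.68 (SD, n = 4), a 95% interval of -0.43 to 0.95 and an adjusted limma p of 0.977. Without replicate 3 the mean was -0.04. A second COL8A1 probe exceeded background in no channel and differed from the brighter one by up to 0.93. COL10A1, the collagen of hypertrophic cartilage, had ratios of -0.07, 0.01, 0.01 and 0.14.

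**Figure D3:**
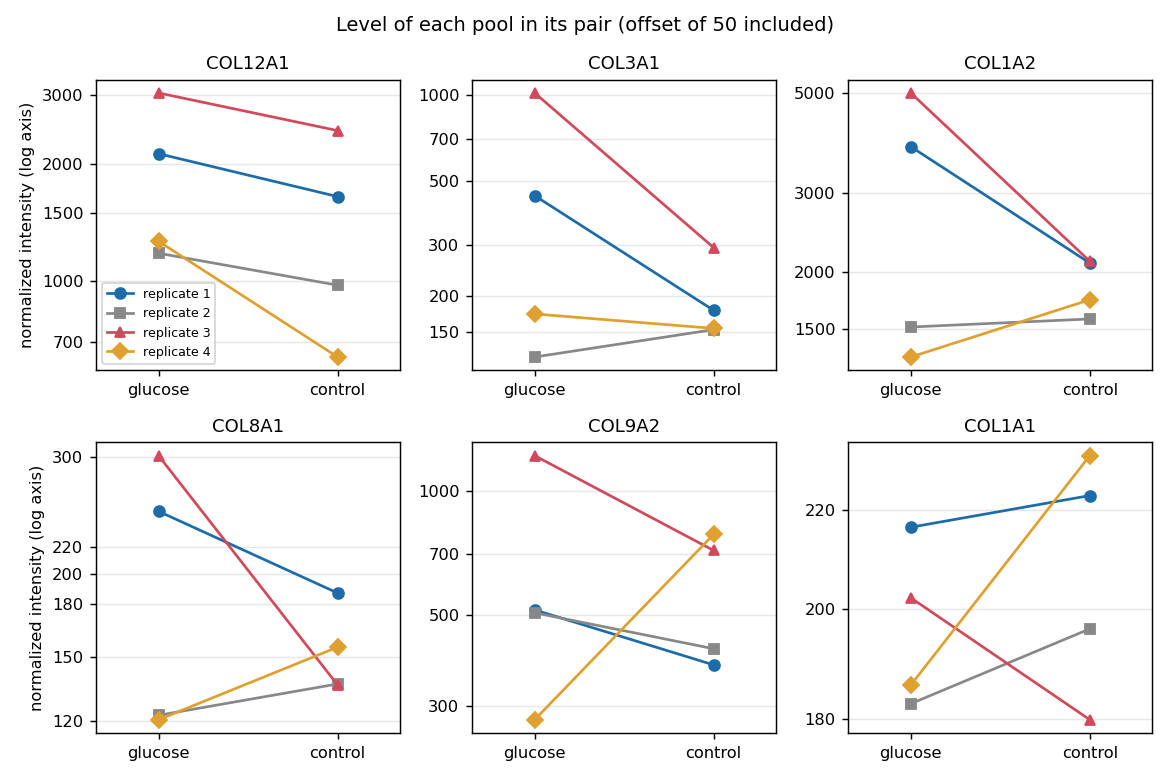
Normalized intensity (log axis, with the added constant of 50) in the glucose pool and its control pool for 6 collagens, with a line for each of the 4 replicates and an axis range of its own in each panel. The lines of replicates 1 and 3 run steeply down toward control in COL3A1, COL1A2 and COL8A1, those of COL12A1 all run down, and replicate 4 crosses the others in COL9A2.

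The membrane-spanning collagens COL13A1, COL17A1, COL23A1 and COL25A1, which hold cells to matrix or to each other, had ratios between -0.13 and 0.08. Among the multiplexins, basement membrane collagens, COL15A1 had ratios of 0.03, 0.09, 0.47 and -0.39, and COL18A1, the source of endostatin, had -0.11, 0.18, 0.01 and 0.23. COL7A1, the anchoring fibril of skin, had ratios between -0.14 and 0.03. COL28A1, a collagen known from nerve, was below 0 in all 4 replicates with -0.06, -0.15, -0.02 and -0.04. Its sign followed the dye on single arrays. With glucose in Cy5 its ratios were 0.10, 0.12, 0.15 and 0.23, and with glucose in Cy3 they were -0.22, -0.41, -0.19 and -0.32. The dye term was 0.44 (limma, adjusted p = 0.013).

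The medians of the mean ratio by family were 0.03 in fibrillar, 0.04 in type VI, -0.00 in FACIT, 0.14 in short-chain, -0.04 in membrane-spanning and 0.06 in multiplexin genes, and -0.05 in the pair COL7A1 and COL28A1. By the brightest probe, 3 of the 28 collagens (10.7%) kept the same sign in all 4 replicates, against 9.61% of all named genes. These were COL12A1 above 0, and COL24A1 and COL28A1 below 0. COL24A1 did not keep its sign by its other probes. Above 0 in all 4 stood 1 of the 28, against 5.17% of named genes, and below 0 stood 2, against 4.43%. Of the 20 tested collagens not described with their levels above, 19 stayed within 0.5 of 0 in every replicate, COL27A1 being the exception. Their means ranged from -0.09 in COL16A1 to 0.09 in COL5A3. Most of the 20 exceeded background in only some channels, where a ratio near 0 says little. The share of all named genes within 0.5 of 0 was not counted. The 5 genes with more than 1 probe had 7 further probes. Apart from COL8A1, the largest difference of these from the brightest probe in any replicate was 0.242, in COL24A1.

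Within single pairs, few collagens were 2-fold apart on both arrays. In replicate 1 COL3A1 was at least 2-fold higher in glucose, 1 of 28 (3.57%), against 0.501% of named genes. In replicate 3 COL1A2, COL3A1 and COL8A1 were, 3 of 28 (10.7%), against 0.794%. In replicate 2, 0 of 28 were, against 0.135%, and in replicate 4, 0 of 28, against 2.97%. In the other direction COL9A2 was at least 2-fold lower in glucose in replicate 4, 1 of 28 (3.57%), against 1.06%. In replicates 1 to 3, 0 of 28 were, against 0.0715%, 0.0238% and 0.215%. A pair of pools has no replicate of its own, so these are descriptions of 4 comparisons between pools.

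The collagen-processing genes gave values beside which the collagen ratios can be read. Of 38 listed symbols, 30 had a tested gene, 0 passed limma's adjusted test, and 3 had an unadjusted p under 0.05 higher in glucose, PLOD2, FKBP10 and P4HA1 (2.08% of named genes), with 0 lower (0.62%). Ratios above 0 were found in 15 and below 0 in 15, with a median of 0.00. PLOD2, a lysyl hydroxylase of collagen telopeptides, had 1.83, 0.50, 2.23 and 0.59, highest in replicates 1 and 3, with a mean of 1.29 ± 0.88 (SD, n = 4) and an adjusted limma p of 0.977. PCOLCE2, which enhances procollagen C-proteinase, had 1.06, -0.24, 0.98 and -0.01. PLOD1, a lysyl hydroxylase of the helix, had 0.84, 0.12, 0.77 and -0.08.

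P4HA2, a prolyl hydroxylase subunit, had 0.22, 0.31, -0.04 and 0.99. The mean of P4HA1, the sister subunit, was 0.34 with an adjusted limma p of 0.977, and that of FKBP10, a collagen chaperone, was 0.16. The 8 tested collagen receptors split into 4 above 0 and 4 below. Their median was 0.01, and 0 of 8 stood at an unadjusted limma p under 0.05, against 2.7% of named genes. DDR1, a collagen-binding kinase, averaged -0.12 ± 0.11 (SD, n = 4), and DDR2, ITGA1 and ITGA11, a kinase and integrin subunits, averaged -0.09, -0.07 and 0.07. DDR2 exceeded background in only 1 glucose and 3 control channels of 8 each, and ITGA1 in 4 and 6.

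Of the 8 tested genes for collagen breakdown, 7 were above 0, against 52.3% of named genes, with a median of 0.04, and 0 passed the adjusted test. CTSK, the cathepsin that cleaves collagen helices, had 0.61, 0.24, 0.24 and 0.29, a mean of 0.35 ± 0.18 (SD, n = 4) and an unadjusted limma p of 0.009, the only one of the 8 under 0.05, against 2.7% of named genes. CTSB, MMP14 and MMP16, a cathepsin and membrane-type metalloproteinases, averaged 0.09, 0.08 and 0.05. Among the 5 tested type IV chains, 3 were above 0 with a median of 0.07, and 0 of 5 had an unadjusted limma p under 0.05, beside the same shares of 52.3% and 2.7% of named genes. COL4A5 averaged 0.23 ± 0.42, COL4A2 0.18 ± 0.40, COL4A1 -0.14 ± 0.48 and COL4A6 0.07 ± 0.11 (SD, n = 4 each). COL4A2 exceeded background in 6 glucose and 4 control channels of 8 each. COL4A1 was at -0.82 in replicate 4, where COL9A2 was low too.

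**Figure D4:**
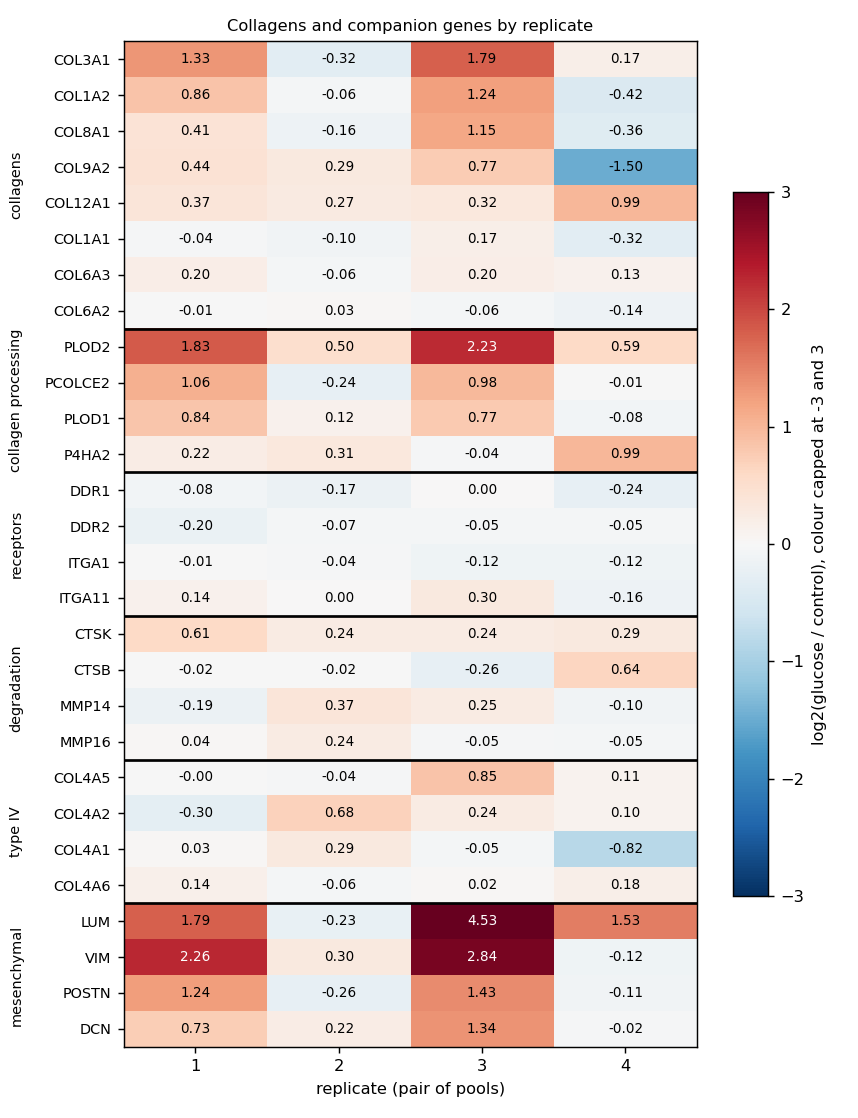
Log2(glucose/control) by replicate for 8 collagens and for genes of collagen processing, receptors, degradation, type IV collagen and mesenchymal cells, each of these lists shown by the 4 genes with the largest absolute means, and with the value printed in each cell. Red cells in replicates 1 and 3 run through COL3A1, COL1A2, PLOD2, PCOLCE2, VIM, LUM and POSTN. PLOD2 was also at 0.50 and 0.59 in replicates 2 and 4, and LUM at 1.53 in replicate 4. COL1A1, COL6A2 and the receptors stay near 0, and of these COL6A2 and DDR2 were above background in only some channels. The mesenchymal markers FN1, PDGFRA and ACTA2, below 0 in replicate 1, are not shown.

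Some markers of mesenchymal cells were high in pairs 1 and 3, where COL3A1 and COL1A2 were high, and others were not. Of the 19 mesenchymal and fibroblast markers, 14 were tested, 0 passed limma's adjusted test, 0 had an unadjusted p under 0.05 (2.7% of named genes) and 10 had a mean above 0 (52.3% of named genes). In replicates 1 to 4, 8, 7, 11 and 5 of the 14 were above 0. Their median ratio was 0.06 in replicate 1, 0.03 in replicate 2, 0.55 in replicate 3 and -0.08 in replicate 4. The 4 markers with the largest means were VIM, POSTN, DCN and LUM. VIM, an intermediate filament protein, had 2.26, 0.30, 2.84 and -0.12, and POSTN, a matrix protein that binds collagen, had 1.24, -0.26, 1.43 and -0.11.

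DCN, a proteoglycan on collagen fibrils, had 0.73, 0.22, 1.34 and -0.02. Its probe exceeded background in only 5 of 8 glucose and 3 of 8 control channels. LUM, a second fibril-binding proteoglycan, had 1.79, -0.23, 4.53 and 1.53. Other markers were below 0 in replicate 1, and ACTA2 in replicate 3 too (picked out after their values were seen). FN1, the matrix protein fibronectin, had -0.65 in replicate 1 and 0.29 in replicate 3. PDGFRA, a growth factor receptor, had -0.46 and 1.03 there, and ACTA2, a smooth muscle actin, had -0.07 in replicate 1 and -0.43 in replicate 3. PDGFRA is also on a list of primitive endoderm markers. The 8 tested genes of that list had medians of -0.07, 0.15, 0.15 and -0.37 in replicates 1 to 4.

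The summed level of the 14 markers, without the added constant, was 64536 to 93755 in glucose pools, against 61956 to 76317 in control pools. Such a sum runs over different probes and follows the brightest of them: FN1 and ACTA2 made up 59.8% to 86.2% of it. By pair, the glucose sum over the control sum was 0.914, 1.04, 1.37 and 1.12, so it was below 1 in pair 1, where COL3A1 and COL1A2 were high. FAP, FBLN1, MGP and PRRX1 exceeded background in no channel. The part of such cells in the collagen ratios was not tested.

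For cumulus and granulosa cells, which surround the oocyte, 11 of 16 markers were tested, 0 had an adjusted call in limma, CYP11A1 alone had an unadjusted p under 0.05 (1 of 11, against 2.7% of named genes), and 9 had a mean above 0 (52.3% of named genes) with a median of 0.08. INHBA, an activin subunit, had -0.01, 0.41, 1.22 and -0.08. PTX3, a cumulus matrix protein, had 0.10, -0.13, 1.37 and -0.26, and the steroidogenic enzymes CYP11A1 and CYP19A1 averaged -0.26 and -0.22. The summed level of the 11 markers was 3830 to 6031 in glucose pools, against 2861 to 5854 in control pools, and HSD3B1 and CYP11A1, steroidogenic enzymes, made up 31.2% to 72.6% of it. By pair, the glucose sum over the control sum was 1.03, 1.14, 0.901 and 1.36. AMH and AMHR2 were in no channel above background. The part of such cells in the collagen ratios was not tested.

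The genes whose 4 ratios lay nearest to the mean of COL1A1, COL1A2, COL3A1, COL6A2 and COL6A3 (0.47, -0.10, 0.67 and -0.12) were GRASP, EMX2, B4GALT4, NTN4, C1QTNF6, SQRDL, ZDHHC14, ORMDL3, SRPX2 and FCGRT, at Euclidean distances of 0.08 to 0.24 over the 4 replicates. Since those 5 collagens differ among themselves, the mean of COL1A2 and COL3A1 alone (1.09, -0.19, 1.51 and -0.13) was also used, a choice made after the values were seen. Its nearest genes were POSTN at a distance of 0.19 and SMOC2 at 0.21, then SERPINB10, ITPKA, PCDH8, IFI16, IL27RA, FLRT2, EFEMP1 and ANGPTL2 out to 0.50. SMOC2, a secreted calcium-binding protein, had 1.14, -0.01, 1.61 and -0.08.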

How the data were processed

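Blastocyst pools of 10 embryos were hybridised in pairs on 8 two-channel arrays. The deposited scanner tables hold the mean and median intensity and the local background per spot and dye, not normalized, per the file headers. The submitters' processing notes name limma, with no version given there. The deposited series table holds 1 score per probe and array, with unit, centring and normalization not stated by the authors. It was read as log2 glucose over log2 control, which is inferred, with column medians of 0.998 to 1, and the ratios it gives correlated across probes at 0.938 to 0.998 with those from the scanner, with slopes of 0.964 to 1.14. It served only as an alternative.

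Mean intensities were corrected by normexp (offset 50) and each array was loess-normalized on its own, in R 4.3.3 with limma 3.58.1. All ratios run as log2(glucose/control), and the mean of both same-numbered arrays is 1 replicate. The labels do not state that equal numbers mean the same pools. After removal of the dye effect, same-numbered arrays correlated at 0.734, 0.773, 0.847 and 0.912 for numbers 1 to 4, while the best match with a different number reached 0.215, 0.161, 0.215 and 0.064. Of 43794 probes, 32935 were tested: those that on 4 or more of the 8 arrays were brighter, in either dye, than the mean plus 2 SD of 153 negative control spots. On 1 array a single control spot raised the Cy3 threshold to 1318, against 146 without it, so channel counts leave out the brightest control spot. Ratios were tested against 0 with lmFit and eBayes over all these probes. The fit was also run on simulated data, but these gave all 4 replicates the same spread. They therefore do not check the fit under the wider spread of replicate 4. The number of arrays limits the precision.

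Gene names come from the platform table, which gives 21790 probes 1 symbol and 22004 none, and all 33 collagen symbols are current in RefSeq. The brightest probe stands for a gene. Genes with full values are the 5 collagens COL1A1, COL1A2, COL3A1, COL6A2 and COL6A3, and any collagen that was at least 2-fold apart on both arrays of a replicate, had an unadjusted p under 0.05 or had discordant probes. From other lists up to 4 with the largest mean are named, plus FKBP10 and P4HA1, named after their values were seen. The collagens and all lists were chosen with earlier results of these data known. COL5A1, COL5A2 and COL14A1 were not analysed here. No sequences or coordinates are given.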

Additional observations from a re-analysis of the deposited data

Results flagged for a closer look

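In 3 of 48 groups of 4 replicate ratios examined, 1 replicate lay far from the others, and in all 3 it was replicate 4. By its construction at a 95% critical value, Dixon's criterion marks about 1 group in 20 by chance. Replicate 4 also had the widest ratios over all probes, with an SD of 0.43, against 0.19, 0.21 and 0.24 in replicates 1 to 3, and the part of that spread was not tested. COL12A1 had a ratio of 0.99 in replicate 4, against 0.37, 0.27 and 0.32 in the others. COL16A1, a FACIT collagen, had -0.33 in replicate 4, against -0.03, -0.02 and 0.02. COL24A1 had -0.23 in replicate 4 by its brightest probe, against -0.03, -0.04 and -0.03. Its other probes had 0.01 and -0.05 in replicate 4.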

How the results depend on the processing

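Under 22 alternatives no probe was called at an adjusted p under 0.05 by limma. In the main fit, 781 probes (2.37%) had an unadjusted p under 0.05. The lowest adjusted limma p of any of the 8 collagens described in full was 0.342, for COL12A1 in the 8-array fit with array numbers not blocked. That fit counts both arrays of a number as independent, which tends to make p-values too small. COL12A1 stayed above 0 in all 22, between 0.32 and 0.63, with an unadjusted limma p of 0.002 to 0.076. The 0.002 came from the same unblocked fit, and with the replicate block limma gave 0.003. The number of collagens at an unadjusted p under 0.05 was 0 with median centring in place of loess, 2 with median spot intensity, 2 with the 8 arrays and a replicate block, 2 with array numbers not blocked, 4 with array weights, 1 to 3 leaving out single replicates and 0 without replicates 1 and 3 together. Both 8-array fits gave COL12A1 and COL3A1, so the count was the same with the replicate block as without it, and the block changed no adjusted call. The number with the same sign throughout was 1 with median centring, 6 to 9 leaving out single replicates, and 15 without replicates 1 and 3, where fewer ratios have to share a sign. The number at least 2-fold higher was 0 in replicate 1 with offset 200, median centring or median spot intensity, and 1 in replicate 4 with median centring. For these counts of collagens under the alternatives, the shares of all named genes were not worked out. The counts are therefore not set against a background. COL9A2, whose mean is 0.00, was -0.0229 with offset 0, -0.10 with median spot intensity, -0.0252 with the authors' deposited values, -0.0234 on array set 056, -0.25 to 0.50 leaving out single replicates and -0.60 without replicates 1 and 3. COL6A2 was 0.0185 on array set 047. COL8A1 was -0.0371 to 0.47 leaving out single replicates and -0.26 without replicates 1 and 3, COL1A1 -0.155 to 0.00708 leaving out single replicates, and COL1A2 and COL3A1 -0.24 and -0.0746 without replicates 1 and 3. Replicates 1 and 3 held the highest ratios of COL1A2, COL3A1, COL8A1 and COL9A2, so leaving both out must lower those means. Beyond that, the cause of these moves was not tested. Probes near the negative controls, among them COL6A2, COL6A3, COL16A1 and most untested collagens, limit what a ratio can show.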
